A study of Sus scrofa with 15 samples.

Results

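The genes described here are 10 members of the BCL2 family and of the inhibitor of apoptosis protein (IAP) family, namely BCL2A1, BCL2, BCL2L1, MCL1, BAX, BAK1, BID, BCL2L11, BIRC3 and XIAP. They were chosen by symbol from 30477 genes listed in each count table. Of the 10 genes, 7 could be matched to the tables and 6 passed the filter on low counts, which left 14918 genes for testing in all. BCL2, BAX and BCL2L11 could not be matched by identifier and were not analysed here. MCL1 was listed at 0 counts in all 15 libraries, and because most cells use this gene the entry is not read as a level.

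RNA-seq was carried out on backfat biopsies of Iberian pigs that had received 1 of 3 growing diets from 6.5 to 12 months of age, with 5 pigs and so 5 libraries per diet. The control (C) pigs ate a compound feed that was restricted to 70% of free energy intake. The DOP pigs ate a compound feed with 45% dry olive pulp, and the WCOC pigs ate a compound feed free of by-product together with unrestricted silage of 75% wet crude olive cake and 25% barley straw. For the DOP and WCOC pigs this restriction of the compound feed was to 60%. Each diet was kept in 1 pen, so that diet, feeding level and pen cannot be told apart, and the 15 pigs were picked from 44 for the quantity and quality of their RNA.

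Apoptosis through the mitochondria is controlled by the balance within the BCL2 family. BCL2A1, BCL2, BCL2L1 and MCL1 keep the outer mitochondrial membrane closed, BAX and BAK1 open it, and the BH3-only proteins BID and BCL2L11 carry the death signal to them. Once the membrane opens, cytochrome c leaves and caspases are activated, and XIAP blocks caspases directly while BIRC3 acts mainly as a ubiquitin ligase in TNF receptor and NF-kB signalling. In adipose tissue these genes are used by adipocytes and by the blood vessel and immune cells between them, and BCL2A1 is best known from haematopoietic cells, where NF-kB induces it.

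Libraries held 22373715 to 34745218 counts on genes. The adipocyte marker ADIPOQ was high in all 15 libraries, in keeping with the tissue label. It stood at 3087 to 4128 CPM in C, 4432 to 6756 CPM in DOP and 4386 to 8028 CPM in WCOC. CPM is the count of a gene relative to the scaled size of its library. Summed adipocyte markers overlapped between the diets. All WCOC libraries and 4 of the C libraries were read on 1 flow cell, and all DOP libraries and control 5 on another, so that flow cell and diet cannot be told apart between WCOC and DOP. In DOP vs. C they are told apart by control 5 alone. Skeletal muscle markers were uneven, with a summed level of 31.1 to 40924 CPM in DOP, 42.9 to 3188 CPM in C and 16.6 to 633 CPM in WCOC. Without DOP pigs 2, 4 and 5, the 3 with the highest sums, the log2FC of BCL2A1 in DOP vs. C was -2.08, against -2.20 with all pigs, and edgeR called 0 of all tested genes with 2 DOP pigs left (1059 had an unadjusted p under 0.05).

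The upstream sequence of 2 members is shown because BCL2A1 was the member past the thresholds and BIRC3 is, like BCL2A1, a textbook target of NF-kB. Each run is the 250 bases before the RefSeq start of the gene in Sscrofa11.1, on the strand of the gene, and capitals mark a match to GAGGAAGT, a form of the site of the myeloid factor PU.1. The BCL2A1 window is chr7:48897668-48897917 on the minus strand and the BIRC3 window is chr9:33003320-33003569 on the plus strand.
BCL2A1: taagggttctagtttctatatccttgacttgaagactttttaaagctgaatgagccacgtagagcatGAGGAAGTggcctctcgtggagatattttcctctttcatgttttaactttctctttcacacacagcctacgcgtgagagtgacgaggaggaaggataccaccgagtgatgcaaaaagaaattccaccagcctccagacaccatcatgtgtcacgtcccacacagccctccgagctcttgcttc
BIRC3: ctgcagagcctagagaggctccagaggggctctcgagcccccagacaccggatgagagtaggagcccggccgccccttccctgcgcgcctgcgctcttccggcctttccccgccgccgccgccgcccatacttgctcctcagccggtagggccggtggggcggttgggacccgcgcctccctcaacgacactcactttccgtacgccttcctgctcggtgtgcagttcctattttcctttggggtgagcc

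Both strands were searched for 3 motifs, the others being the kB consensus bound by NF-kB and the TATA box letters TATAAA. The BCL2A1 window held GAGGAAGT with its first base 183 bases upstream of the start, as did 1.64% of 19544 windows of the same length. The kB consensus stood in 13.99% and TATAAA in 9.768% of all windows, and the BCL2A1 window held neither. The BIRC3 window held none of the 3 motifs, which says only that these letters are not in this stretch.

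BCL2A1, the anti-apoptotic member of haematopoietic cells, fell the most of the tested members in both olive diets relative to C. Its gene (ENSSSCG00000040010) spans chr7:48887227-48897667 on the minus strand. The 5 C pigs had 2.31, 2.43, 5.41, 2.42 and 5.80 CPM, a mean of 3.67 ± 1.77 (SD, n = 5). The 5 DOP pigs had 1.21, 1.13, 0.556, 0.714 and 0.418 CPM, a mean of 0.805 ± 0.349 (SD, n = 5). Every DOP pig was therefore below every C pig, while within C the pigs 3 and 5 stood well above the other 3. The WCOC pigs had 0.916, 2.47, 0.849, 1.048 and 1.83 CPM, a mean of 1.42 ± 0.705 (SD, n = 5). In WCOC, 4 pigs were below the lowest C pig and pig 2 lay among the controls. The gene was low in the tissue, with 12 to 175 counts per library, and with 12 to 30 counts in DOP.

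**Figure D1:**
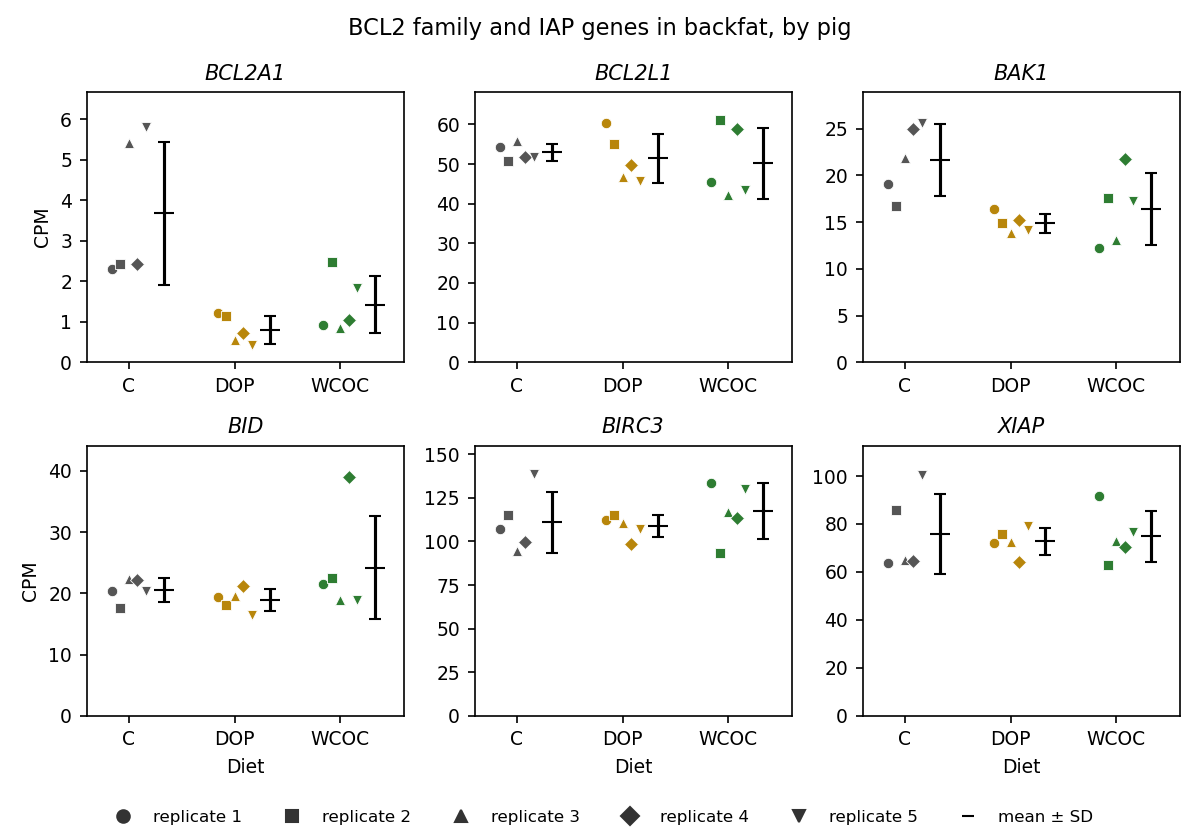
CPM (linear axis) of the 6 tested genes in each of the 15 pigs, by diet, with the mean ± SD of 5 pigs beside the points, where the replicate number only names a pig within its diet. BCL2A1 is lower in all 5 DOP pigs than in any C pig, BAK1 shows the same order with a smaller gap, and the other 4 genes overlap between diets.

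In DOP vs. C, the log2 fold change (log2FC) of BCL2A1 was -2.20 (SE 0.41, 95% interval -3.08 to -1.33), with an adjusted p of 0.0297 in edgeR's quasi-likelihood test, so that the fitted level was 4.59 times higher in C. A gene was called past both thresholds when its adjusted p was under 0.05 and its log2FC at least 0.58 in size. By this rule BCL2A1 was 1 of 6 tested members called, and 0.764% of all tested genes were called, 0.55% as lower. The values of 2 members, BCL2A1 and BAK1, did not overlap between DOP and C, against 3.47% of all tested genes. The median log2FC of the 6 members was -0.09, and that of all tested genes was 0.01.

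The call of BCL2A1 in DOP vs. C was lost when control 3, control 5 or DOP pig 2, 3, 4 or 5 was left out, with adjusted p-values of 0.0656 to 0.0951 and log2FC of -2.36 to -1.97, and it was kept without any of the other 4 pigs. In the 6 fits that lost it, edgeR called 0 to 4 of all tested genes, with 1893 to 2639 at an unadjusted p under 0.05, where the fit on all pigs called 114.

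In WCOC vs. C, the log2FC of BCL2A1 was -1.37 (SE 0.39, 95% interval -2.22 to -0.54), with an adjusted p of 0.0395 in the same test. It was again the 1 member called of 6, where 6.25% of all tested genes were called, 3.93% as lower. None of the 6 members had WCOC values wholly apart from the C values, against 7.62% of all tested genes. The median log2FC of the members was -0.05, and that of all tested genes was 0.00.

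This call was lost in some fits as well. Without control 3, control 5 or WCOC pig 1, 3, 4 or 5, the adjusted p was 0.0539 to 0.103, with log2FC of -1.48 to -1.15, and 468 to 762 of all tested genes were called, where the fit on all pigs called 933. On the flow cell that holds 4 C and all 5 WCOC libraries the adjusted p was 0.112, with a log2FC of -1.16.

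**Figure D2:**
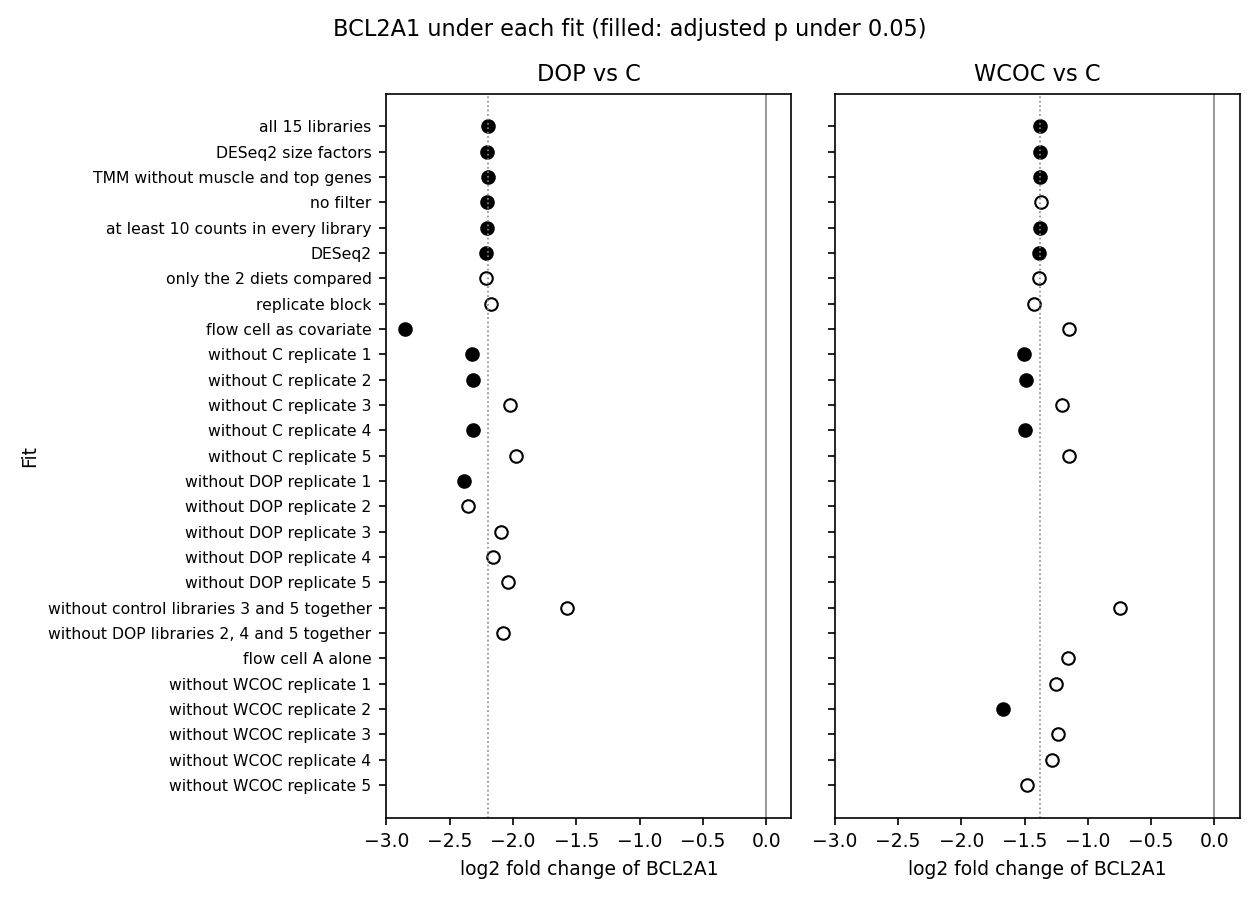
Log2FC of BCL2A1 (points) in DOP vs. C and WCOC vs. C under each fit, with filled points at an adjusted p under 0.05 and a dotted line at the value from all 15 libraries. All points lie below 0, from -2.85 to -1.57 in DOP vs. C and from -1.67 to -0.75 in WCOC vs. C, and most fits that leave out a pig have open points. The lowest point in DOP vs. C has flow cell as a covariate, where control 5 is the 1 control on the flow cell of the DOP pigs.

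Between the olive diets, BCL2A1 differed by a log2FC of 0.82 in WCOC vs. DOP (SE 0.41, 95% interval -0.04 to 1.70, adjusted p = 0.202 in edgeR), and 2 WCOC pigs were above every DOP pig. In this comparison 0 of the 6 members were called by edgeR or by DESeq2, and 0 had an unadjusted p under 0.05 in edgeR or WCOC values wholly apart from the DOP values. Of all tested genes 7.76% were called by edgeR, 28.1% had an unadjusted p under 0.05 in edgeR and 8.9% did not overlap. With DESeq2, 2 of the 6 members had an unadjusted p under 0.05, as had 4373 of all 14918 tested genes. Both olive diets were set against the same 5 C pigs, so their differences from C are not independent of each other.

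**Figure D3:**
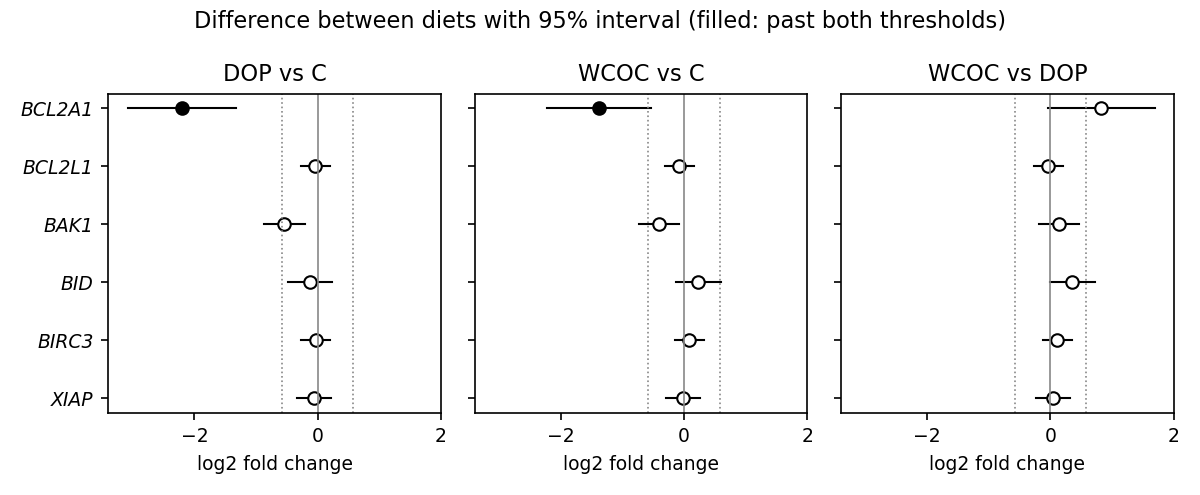
Log2FC (points) with 95% interval (lines) of the 6 tested genes in the 3 comparisons, with filled points past both thresholds and dotted lines at 0.58 in size. BCL2A1 lies at -2.20 in DOP vs. C and at -1.37 in WCOC vs. C, and the intervals of BCL2L1, BIRC3 and XIAP lie within 0.35 of 0 in all 3 comparisons.

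BAK1, which forms the pore of the outer mitochondrial membrane, had the next largest difference from C among the members. It lies at chr7:29808849-29815345 on the minus strand. The C pigs had 19.03, 16.7, 21.9, 24.97 and 25.6 CPM (21.6 ± 3.81, SD, n = 5). The DOP pigs had 16.3, 14.9, 13.8, 15.2 and 14.1 CPM (14.9 ± 0.999, SD, n = 5). All DOP pigs were below all C pigs, with a narrow gap between DOP pig 1 and control 2. The WCOC pigs had 12.2, 17.6, 13.03, 21.7 and 17.3 CPM (16.3 ± 3.85, SD, n = 5), and 2 of them were below the lowest C pig.

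The log2FC of BAK1 was -0.54 in DOP vs. C (SE 0.15, 95% interval -0.87 to -0.21), with an unadjusted p of 0.00312 and an adjusted p of 0.106 in edgeR, so it was not called. BCL2A1 and BAK1 were the 2 members with an unadjusted p under 0.05 in DOP vs. C, where 17.6% of all tested genes had one. In WCOC vs. C the log2FC of BAK1 was -0.40 (SE 0.15, 95% interval -0.73 to -0.08, adjusted p = 0.110 in edgeR), and the same 2 members had an unadjusted p under 0.05 against 26.4% of all tested genes. With DESeq2 the adjusted p in DOP vs. C was 0.0243, but the difference stayed under 0.58 in size.

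BCL2L1, which encodes the anti-apoptotic protein BCL-XL, was close to level over the diets. It lies at chr17:35366139-35415798 on the minus strand and had 52.9 ± 2.09 CPM in C, 51.5 ± 6.18 in DOP and 50.2 ± 8.94 in WCOC (SD, n = 5 each). Its log2FC was -0.04 in DOP vs. C (95% interval -0.28 to 0.20) and -0.08 in WCOC vs. C (95% interval -0.31 to 0.16). Both intervals lie inside the limit of 0.58 on size. The C pigs lay between 50.7 and 55.8 CPM, and the WCOC pigs between 42.3 and 61.0 CPM, on both sides of them.

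BID, the BH3-only protein that links death receptors to mitochondria, lies at chr5:69849007-69874647 on the minus strand. It had 20.6 ± 1.95 CPM in C, 18.9 ± 1.77 in DOP and 24.2 ± 8.42 in WCOC (SD, n = 5 each). The wide spread in WCOC came from pig 4, which had 39.0 CPM where the other 4 WCOC pigs had 18.9 to 22.5 CPM. The log2FC was -0.12 in DOP vs. C (95% interval -0.49 to 0.24) and 0.23 in WCOC vs. C (95% interval -0.13 to 0.59), and without WCOC pig 4 the latter was -0.01. In WCOC vs. DOP it was 0.35 (95% interval -0.01 to 0.72, adjusted p = 0.189 in edgeR), and without WCOC pig 4 it was 0.13.

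BIRC3, also called cIAP2, had the highest CPM of the 6 genes. It lies at chr9:33003570-33020252 on the plus strand, and the neighbouring paralog BIRC2 could not be matched to the tables, so reads shared between the 2 genes could not be checked. The C pigs had 107, 115, 94.3, 99.9 and 139 CPM, the DOP pigs 98.6 to 115 CPM and the WCOC pigs 93.4 to 134 CPM. The ranges overlapped throughout, with a log2FC of -0.03 in DOP vs. C (95% interval -0.27 to 0.20) and 0.08 in WCOC vs. C (95% interval -0.15 to 0.32).

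XIAP, the direct caspase inhibitor, lies at chrX:101399374-101440021 on the plus strand. The C pigs had 63.7, 85.6, 64.9, 64.4 and 100.4 CPM, the DOP pigs 64.0 to 79.1 CPM and the WCOC pigs 62.9 to 91.7 CPM. Control 5 was the highest of the C pigs for BIRC3 and for XIAP alike, and WCOC pig 1 was the highest of the WCOC pigs for both. The log2FC of XIAP was -0.06 in DOP vs. C (95% interval -0.34 to 0.22) and -0.02 in WCOC vs. C (95% interval -0.30 to 0.26), and its sign in WCOC vs. C turned when control 2, control 5 or WCOC pig 2 or 4 was left out.

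Levels of different genes were compared as CPM per kilobase of RefSeq exon. The counts are on Ensembl genes, so the order between genes depends on the RefSeq lengths matching these. In C the order of the mean levels was BIRC3 at 19.7, BCL2L1 at 14.2, XIAP at 10.8, BID at 10.3, BAK1 at 7.79 and BCL2A1 at 5.93 CPM per kilobase. Only BIRC3 stood apart from its neighbour in this order, as its C range of 16.7 to 24.6 did not reach the 13.7 to 15.01 of BCL2L1, and each of the other neighbouring pairs overlapped. In DOP the same order held, and BCL2A1 at 0.675 to 1.94 CPM per kilobase was separate from BAK1 at 4.96 to 5.88. In WCOC, BID had a mean of 12.1 and XIAP of 10.7 with overlapping ranges, and without WCOC pig 4 the means were 10.2 for BID and 10.9 for XIAP. There BCL2A1 at 1.37 to 3.99 was separate from BAK1 at 4.38 to 7.81.

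Ratios of CPM between members, which keep the length of each gene constant over the diets, were computed for 5 pairs and were not tested. BCL2L1 over BAK1, an inhibitor over a pore-former, was 2.02 to 3.04 in C, 3.23 to 3.69 in DOP and 2.52 to 3.74 in WCOC, so that DOP lay above C and WCOC overlapped both. BID over BAK1 was 0.798 to 1.07 in C, 1.17 to 1.42 in DOP and 1.10 to 1.80 in WCOC, which placed both olive diets above C. Both of these ratios use the BAK1 values, which by themselves did not overlap between DOP and C. BCL2A1 over BCL2L1 was 0.0424 to 0.112 in C, 0.00917 to 0.0206 in DOP and 0.0178 to 0.0421 in WCOC. Both olive diets thus lay below C, WCOC by a very narrow gap, and the BCL2A1 values of DOP and C did not overlap by themselves. The share of all gene pairs whose ratios separate the diets was not computed. BCL2L1 over BID and BIRC3 over XIAP overlapped between all 3 diets.

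The genes whose log2 CPM followed BCL2A1 most closely over the 15 libraries, among 11954 tested genes with a symbol, were SLC11A1 (Pearson r = 0.97), ITGB2 (0.97), CD48 (0.96), LCP1 (0.96) and ADA2 (0.96). SLC11A1 is a metal ion transporter of macrophage phagosomes, ITGB2 the beta chain of leukocyte integrins, CD48 a leukocyte surface protein, LCP1 the plastin of leukocytes and ADA2 an adenosine deaminase secreted by myeloid cells. These values describe 15 points that share diets and libraries, and they were picked as the highest of many.

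Macrophage markers stand beside the differences of BCL2A1 from C. All 15 listed markers were found, with CSF1R the most abundant, and their summed level was 339 to 1016 CPM in C, 220 to 544 CPM in DOP and 173 to 429 CPM in WCOC. Of the 15 markers, 1 was called lower in DOP vs. C and 7 in WCOC vs. C, where 0.55% and 3.93% of all tested genes were called as lower. The median log2FC of the markers was -1.04 and -1.21, with 14 and 15 of them below 0. In WCOC vs. DOP, where the log2FC of BCL2A1 was above 0, the median of the markers was -0.30. There 1 marker was called lower, against 5.11% of all tested genes. Controls 3 and 5, the C pigs with the most BCL2A1, also had the highest sums, 789 and 1016 CPM. Without both of them the log2FC of BCL2A1 was -1.57 in DOP vs. C (adjusted p = 0.258 in edgeR) and -0.75 in WCOC vs. C (adjusted p = 0.331). As the 2 were also highest in BCL2A1, a smaller difference follows from leaving them out, and with 3 controls edgeR called 0 of all tested genes in DOP vs. C, with 1776 at an unadjusted p under 0.05, and 289 in WCOC vs. C. In bulk tissue, fewer cells of a type and less RNA per cell cannot be told apart.

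The level of BCL2A1 was also taken relative to the sum of these markers. Per 1000 CPM of the summed markers, BCL2A1 stood at 5.04 to 7.19 CPM in C (6.26 ± 0.876, SD, n = 5), at 1.90 to 2.76 CPM in DOP (2.16 ± 0.358, SD, n = 5) and at 4.46 to 5.90 CPM in WCOC (5.44 ± 0.594, SD, n = 5). All DOP pigs were below all C and WCOC pigs, whereas the C and WCOC pigs overlapped. The part of flow cell in this ratio was not tested, and the 1 control on the flow cell of the DOP libraries, control 5, had 5.71 CPM. With each of the 15 markers left out of the sum in turn, the DOP pigs stayed below all others. Against single markers, DOP lay below C without overlap for 13 of 15 and below WCOC for 12 of 15, the exceptions being MSR1 and MARCO for both and AIF1 for WCOC. Against MSR1 the order turned, with a median of 104 CPM of BCL2A1 per 1000 CPM of MSR1 in C and 141 in DOP. All these versions share the same BCL2A1 values, so they do not count as separate results. The share of other genes with such a gap was not computed. The ratio was chosen after its values were seen, so no p is given.

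**Figure D4:**
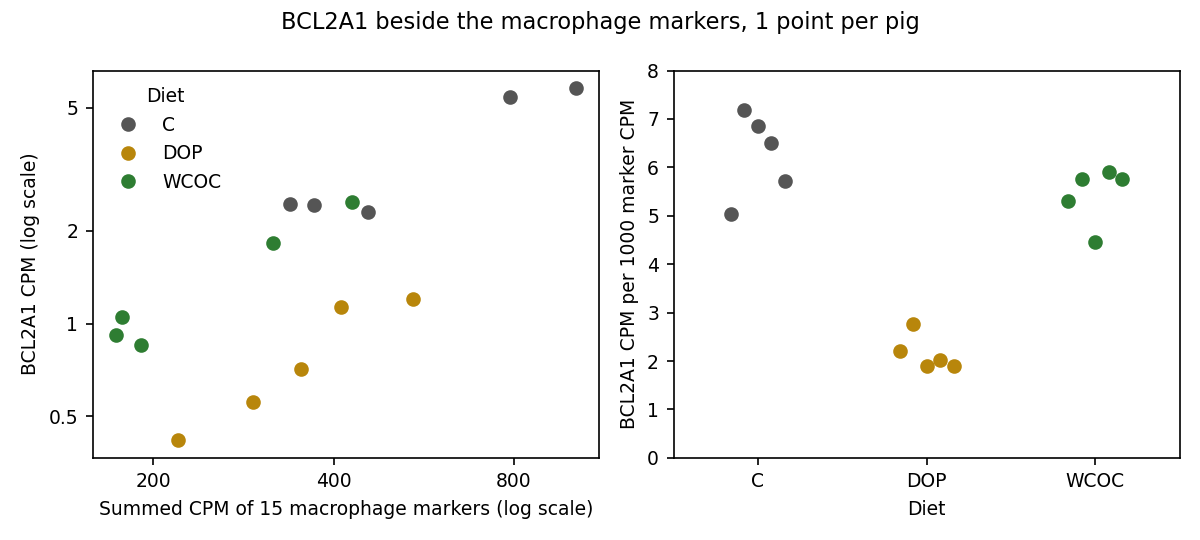
Left, BCL2A1 CPM against the summed CPM of 15 macrophage markers (both on log scales), 1 point per pig, and right, BCL2A1 CPM per 1000 CPM of the markers, by diet (linear axis). The 5 DOP pigs lie at 1.90 to 2.76 in the right panel and below the other 10 pigs, whose values run from 4.46 to 7.19.

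The sums of the other immune marker lists overlapped between the diets. The neutrophil markers, with S100A12 the most abundant, summed to 23.2 to 92.1 CPM in C, 24.7 to 50.2 CPM in DOP and 13.2 to 65.2 CPM in WCOC. The T cell markers, with CD2 the most abundant, summed to 6.72 to 18.9 CPM in C, 5.43 to 25.9 CPM in DOP and 4.19 to 19.3 CPM in WCOC. The B cell markers, with PAX5 the most abundant and CD79A at 0 in all libraries, summed to 0.854 to 1.60 CPM in C and to at most 13.5 CPM in DOP and 9.06 CPM in WCOC. The mast cell markers, with MS4A2 the most abundant, summed to 15.3 to 31.4 CPM in C, 15.5 to 35.9 CPM in DOP and 9.23 to 18.03 CPM in WCOC. In WCOC vs. DOP 1 of 3 was called lower, against 5.11% of all tested genes, and their median log2FC was -1.41. Endothelial markers, with PECAM1 the most abundant, summed to 957 to 1203 CPM in C, 1241 to 1611 CPM in DOP and 1042 to 1703 CPM in WCOC, so that DOP lay above C. In WCOC vs. C 1 of 7 was called, as higher, where 6.25% of all tested genes were called in either direction.

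The wider apoptosis pathway was followed through 57 further genes, of which 46 were found and 45 tested. In DOP vs. C, edgeR called 0 of the 45 and DESeq2 called 1, and 9 had an unadjusted p under 0.05 in edgeR. Of all 14918 tested genes, DESeq2 called 496, and 17.6% had an unadjusted p under 0.05 in edgeR. By edgeR, 2 were called in WCOC vs. C and 3 in WCOC vs. DOP, all of them lower in WCOC. These were 4.44% and 6.67% of the list, where 3.93% and 5.11% of all tested genes were called as lower. The median log2FC of the list was -0.02, -0.05 and -0.03 in the 3 comparisons. The called genes were BIRC5, AIFM1 and CYCS.

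BIRC5 encodes survivin, an IAP family member that acts chiefly in cell division. It lies at chr12:3747276-3755214 on the minus strand. The C pigs had 4.12, 5.21, 5.67, 4.95 and 7.26 CPM, the DOP pigs 6.11, 4.11, 3.77, 5.18 and 4.71 CPM and the WCOC pigs 2.19, 3.56, 1.89, 1.87 and 2.07 CPM. All WCOC pigs were below all C and all DOP pigs. The log2FC was -1.23 in WCOC vs. C (SE 0.21, adjusted p = 0.00321 in edgeR) and -1.04 in WCOC vs. DOP (SE 0.21, adjusted p = 0.00817). In WCOC vs. C it was called in all 10 fits that left out a pig and under all 10 other settings. In WCOC vs. DOP the call was lost with flow cell as a covariate (log2FC -0.50) and without DOP pigs 2, 4 and 5 (log2FC -1.10). In these fits edgeR called 1 and 80 of all tested genes, where the fit on all pigs called 1158. With the covariate, WCOC vs. DOP depends on control 5, the 1 control on the flow cell of the DOP pigs. Markers of cell division moved with it, as 5 of the 5 tested were called lower in WCOC vs. C and 4 in WCOC vs. DOP. Of all tested genes, 3.93% and 5.11% were called as lower. The summed level of these markers was 9.33 to 18.6 CPM in WCOC, 34.2 to 61.1 CPM in C and 32.3 to 52.2 CPM in DOP.

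CYCS encodes cytochrome c, which carries electrons in respiration and triggers caspase activation once released. It lies at chr18:47169921-47172212 on the plus strand. The C pigs had 59.0 to 83.8 CPM, the DOP pigs 57.2 to 133 CPM and the WCOC pigs 28.4 to 56.5 CPM, and no WCOC value overlapped either other diet. It was called in WCOC vs. DOP (log2FC -0.90, SE 0.22, adjusted p = 0.0215 in edgeR) and not in WCOC vs. C (log2FC -0.64, SE 0.22, adjusted p = 0.0846). The difference from C was called with DESeq2 (adjusted p = 0.0351) and on only the 2 diets (adjusted p = 0.0389 in edgeR). In WCOC vs. DOP the call was lost without WCOC pig 1 (log2FC -0.78, adjusted p = 0.0518 in edgeR) and with flow cell as a covariate (log2FC -1.14, adjusted p = 0.346). These fits called 639 and 1 of all tested genes, where the fit on all pigs called 1158. DOP pig 5, which had the highest CYCS value, also had the highest sum of muscle markers. Without DOP pigs 2, 4 and 5, the 3 with the most muscle markers, the log2FC in WCOC vs. DOP was -0.43 (adjusted p = 0.433 in edgeR). As these 3 also had the most CYCS of the DOP pigs, a smaller difference follows from leaving them out. In that fit 80 of all tested genes were called.

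AIFM1 encodes a mitochondrial flavoprotein that supports respiratory complex assembly and can enter the nucleus in caspase-independent death. It lies at chrX:106676596-106708290 on the minus strand. The C pigs had 47.5 to 71.4 CPM, the DOP pigs 50.6 to 73.6 CPM and the WCOC pigs 33.9 to 49.7 CPM. The WCOC pigs were all below the DOP pigs, and 1 of them reached into the C range. The log2FC was -0.58 in WCOC vs. C (SE 0.13, adjusted p = 0.0158 in edgeR), just past the limit on size, and -0.66 in WCOC vs. DOP (SE 0.13, adjusted p = 0.00853). In WCOC vs. C, leaving out control 1, control 4 or WCOC pig 1 or 4 took its log2FC to between -0.54 and -0.52 and so ended the call. With all pigs but without the filter on low counts, the log2FC was -0.578 (adjusted p = 0.0193 in edgeR). This fell just short of the limit on size, so the call was lost there too. Its call in WCOC vs. DOP was lost with flow cell as a covariate (log2FC -1.12) and without DOP pigs 2, 4 and 5 (log2FC -0.60). Of all tested genes, 1 and 80 were called in these fits, where the fit on all pigs called 1158.

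**Figure D5:**
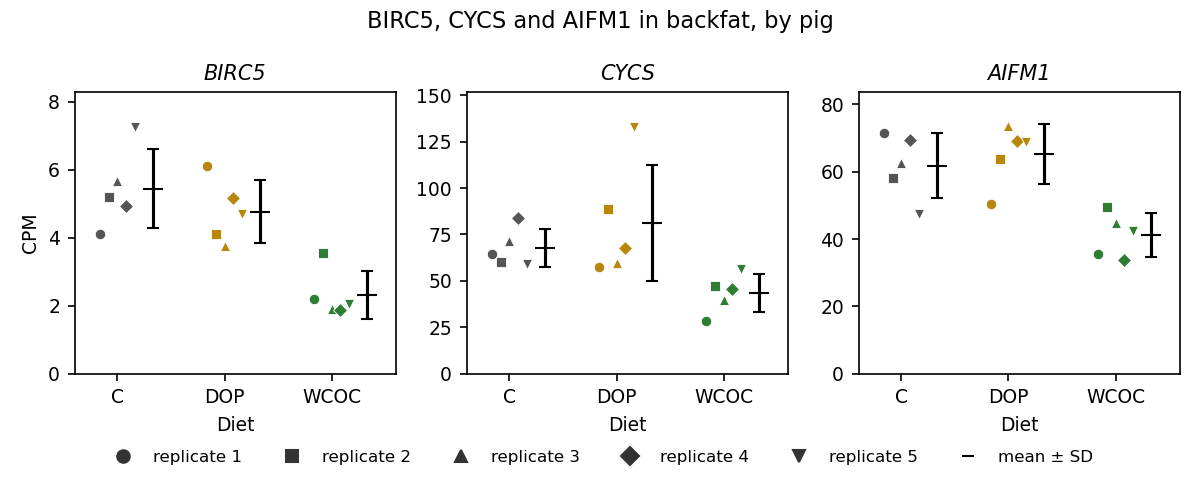
CPM (linear axis) of BIRC5, CYCS and AIFM1 in each pig, by diet, with the mean ± SD of 5 pigs beside the points. The WCOC pigs lie at 1.87 to 3.56 CPM for BIRC5 and at 28.4 to 56.5 CPM for CYCS, below all pigs of both other diets.

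The other pathway genes are given as lists. The 8 tested other members of the BCL2 family had a median log2FC of -0.30 in DOP vs. C, with a range of -0.64 to 0.27, and of -0.09 in WCOC vs. C. The 14 genes of the apoptosome and caspases, AIFM1 and CYCS among them, had medians of 0.06 and -0.03. The 7 genes of death receptors and their adaptors, which act upstream of BID, had medians of -0.04 and -0.02, with 0 of 7 under an unadjusted p of 0.05 in edgeR in all 3 comparisons and 0 of 7 called. The 12 NF-kB subunits and feedback inhibitors had medians of -0.16 in DOP vs. C and -0.07 in WCOC vs. C. Their log2FC ranged from -1.10 to 0.30 in DOP vs. C and from -1.10 to 0.16 in WCOC vs. C, with 0 called. In edgeR, 5 and 3 of them had an unadjusted p under 0.05, where 17.6% and 26.4% of all tested genes had one.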

How the data were processed

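The authors aligned untrimmed 76 bp read pairs to Sscrofa11.1 with HISAT2, set as strand-specific, and HTSeq-count gave the number of pairs on each Ensembl gene. The deposited values are these raw counts, 1 table per library and neither normalized nor pooled. Which strand setting and which annotation release the counting used is not given in the sources used here, so counts of overlapping genes are uncertain. Symbols were matched through a reference name table (14864 symbols), and positions and sequences are from RefSeq on Sscrofa11.1.

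The quasi-likelihood test of edgeR 4.0.16 (R 4.3.3) was run two-sided on the 14918 genes that filterByExpr kept, with TMM scaling, 1 mean per diet and all 15 libraries, and p-values were adjusted over these genes by Benjamini-Hochberg. The common dispersion was 0.0814. The authors used DESeq2, which is an alternative here (1.42.0). The standard error was the unshrunk log2FC divided by the root of F, and 1 was the prior count of log2 CPM. Libraries held 22373715 to 34745218 counts on genes, and 23.4% to 32.8% of read pairs were not assigned to a gene and left out. Pigs are the replicates of a diet, chosen from 1 pen.

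The 10 members, the pathway lists and the marker lists were chosen with earlier results of these data known. The genes named are the members, the pathway genes past both thresholds in any comparison, the 5 genes most like each called member, the most abundant marker of a list and markers at 0. MSR1, MARCO and AIF1 were named after their values were seen. On simulated data with 200 changed genes in WCOC vs. C, 160 were called beside 5 unchanged ones of 14802 genes, and 0 were called without any change. The simulated counts were drawn for each gene separately, without differences in flow cell, muscle or macrophage content. They therefore check the fit itself and not how these differences bear on the calls. Alternatives were other scalings and filters, DESeq2, fits on 2 diets or 1 flow cell, a replicate block, a flow cell covariate, and leaving out each library. The fits without controls 3 and 5 or DOP pigs 2, 4 and 5, and the ratio of BCL2A1 to the macrophage markers, were chosen after seeing the data. Figures used Python 3.11.15 and matplotlib 3.10.9.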

Additional observations from a re-analysis of the deposited data

Results flagged for a closer look

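For 2 of the 27 sets of 5 pigs (9 named genes in 3 diets), 1 pig lay far from the other 4, where chance gives about 1 in 20. BID in WCOC stood at 39.0 CPM in pig 4, and the nearest of the other WCOC pigs was at 22.5 CPM, a gap of 0.818 of the whole range. BIRC5 in WCOC stood at 3.56 CPM in pig 2, and the nearest of the others was at 2.19 CPM, a gap of 0.811 of the whole range.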

How the results depend on the processing

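BCL2A1 was lower than in C in every fit run for both olive diets, but its call was not kept by all of them. Called members fell from 1 to 0 in DOP vs. C with a fit on only the 2 diets (BCL2A1 adjusted p = 0.0691 in edgeR) and without DOP pigs 2, 4 and 5 (0.559), and in WCOC vs. C without a filter (0.0529), on only the 2 diets (0.0532), with flow cell as a covariate (0.0955) and on flow cell A alone (0.112). In the same order, these fits called 2 and 0 of all tested genes in DOP vs. C, and 804, 766, 680 and 486 in WCOC vs. C. Without controls 3 and 5, which have the most BCL2A1 of the controls, they fell from 1 to 0 in both comparisons, and calls over all genes fell from 114 to 0 and from 933 to 289. DESeq2 called BCL2A1 in both, with adjusted p of 3.07e-05 and 0.00753. Over the fits that leave out 1 pig, called members ranged from 0 to 1 in DOP vs. C and from 0 to 1 in WCOC vs. C, and the call was kept in 4 of 10 fits each. Calls over all genes in the 6 fits that lost it were 0 to 4 in DOP vs. C and 468 to 762 in WCOC vs. C. The cause was not tested.

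Called pathway genes were 1 in DOP vs. C with DESeq2 and 0 to 1 when a pig was left out. Calls over all tested genes were 496 and 0 to 200 in these fits, and 114 in the main fit. In WCOC vs. C they were 1 without a filter, 4 with DESeq2 and 1 to 3 when a pig was left out. Over all tested genes they were 804, 1181 and 468 to 1163, and 933 in the main fit. In WCOC vs. DOP called pathway genes were 0 with flow cell as a covariate and 0 without DOP pigs 2, 4 and 5. There 1 and 80 of all tested genes were called, and 1158 in the main fit.

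The signs that turned belonged to differences that were not called. With flow cell as a covariate the log2FC of XIAP in WCOC vs. C was 0.10, and on flow cell A alone 0.094. Without controls 3 and 5 it was 0.070, and in DOP vs. C the log2FC were 0.017 for BIRC3, 0.029 for XIAP, 0.0023 for BIRC5 and -0.026 for AIFM1. Without DOP pigs 2, 4 and 5 the DOP vs. C values were 0.016 for BCL2L1, 0.0048 for BIRC3 and -0.22 for CYCS. Over the fits that leave out 1 pig, the log2FC in DOP vs. C ran from -0.090 to 0.062 for BIRC3, from -0.12 to 0.062 for XIAP and from -0.0054 to 0.15 for AIFM1. In WCOC vs. C it ran from -0.0051 to 0.31 for BID and from -0.10 to 0.10 for XIAP, and in WCOC vs. DOP from -0.12 to 0.026 for BCL2L1 and from -0.042 to 0.094 for XIAP.

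The replicate numbers do not pair the pigs, as same-numbered libraries of 2 diets deviated from their diet means with correlations of -0.50 to 0.34. With the replicate number as a block, called members were 0 in DOP vs. C (BCL2A1 log2FC -2.17, adjusted p = 0.144 in edgeR) and 0 in WCOC vs. C (-1.43, adjusted p = 0.0836). Over all genes, calls in DOP vs. C went from 114 to 0 with the block, to 2 on only the 2 diets and to 496 with DESeq2. BCL2A1 had 12 to 175 counts per library, which limits the precision of its folds.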
